A study of Mus musculus with 6 samples.

Results

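The 43 genes described here are the cell cycle genes measured in photothrombotic lesions of the mouse cortex, listed by name as 17 genes of S phase, 20 genes of G2 and mitosis (G2/M) and 6 other regulators, out of 32285 features counted. Single-nucleus RNA-seq was run on 6 libraries, 1 per group, so that every interval below covers counting error alone and no difference between groups has a replicate check. Each library pooled lesions from 1 male and 1 female mouse, 7 to 21 weeks old, collected 7 or 21 days post injury (dpi). Ctrl mice were WT and had no treatment in the labels, Tgfbr2-cKO mice were Col1a2(creER); Tgfbr2(flox), and ADWA11 mice were WT and received ADWA11, an antibody that blocks integrin αvβ8. Every group was injured by light and Rose Bengal, and no library of uninjured cortex was part of these data. In the Tgfbr2-cKO mice a tamoxifen-inducible Cre under Col1a2 control removes the TGFβ receptor subunit Tgfbr2 from cells that express Col1a2, chiefly fibroblasts. ADWA11 was injected on the day of injury and weekly after it. The study describes tamoxifen for this cross from before injury until collection and uses alleles with either of a pair of floxed exons, but the sources used here do not tie a schedule or an allele to these libraries, nor say whether the Ctrl mice of these libraries received tamoxifen or an isotype antibody. For its conditional-knockout strains in general, the study describes controls as mainly littermates without Cre or heterozygous for the floxed allele, given tamoxifen where relevant, with exceptions.

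Cells that enter the cycle first switch on S-phase genes, whose products load helicases on DNA, make deoxynucleotides and copy the genome, and later G2/M genes, whose products condense and separate the chromosomes. Transcripts of either set are scarce in resting cells, which is why their joint detection marks a cell as cycling. After cortical injury, microglia, infiltrating myeloid cells, fibroblasts, vascular cells and oligodendrocyte precursors are known to divide, whereas mature neurons do not.

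Both sets carry known promoter elements. CCAAT boxes and cell cycle homology regions (CHR) are typical of G2/M genes, and E2F sites of S-phase genes. Promoters from RefSeq (GRCm38.p6) were found for 37 of the 43 members, and the 250 bases before the annotated start were searched on both strands for CCAAT, for the CHR letters TTTGAA or TTCGAA and for the E2F letters TTTGGCGC, TTTCGCGC or TTTCCCGC. CCAAT was present in 15 of 18 G2/M promoters (83.3%), 10 of 15 S promoters (66.7%) and 34.5% of all 27025 promoters. A CHR was present in 8 of 18 G2/M promoters (44.4%), 2 of 15 S promoters (13.3%) and 17.4% of all promoters. An E2F site was present in 2 of 18 G2/M promoters, 2 of 15 S promoters and 1.59% of all promoters. Among the 4 further members with a promoter, CCAAT, CHR and E2F letters were each found once. Such matches describe the letters in a window and are not evidence of binding. The promoters of 4 members are shown, 200 bases upstream of the start and 5′ to 3′ on the strand of the gene, with matches in capitals, because Top2a and Mki67 hold CCAAT and CHR together, Mcm6 holds E2F sites, of which the first and second overlap, and Anln, which differed from the other G2/M genes across cell classes, holds none of the 3 motifs. Plk4, another G2/M member, also held none of the 3 motifs in the bases searched, and a tie between motifs and levels was not tested. All 4 genes shown lie on the minus strand, and the stretches are chr11:99024190-99024389 (Top2a), chr7:135716380-135716579 (Mki67), chr1:128359706-128359905 (Mcm6) and chr9:22389207-22389406 (Anln), with no annotated exon inside.
Top2a: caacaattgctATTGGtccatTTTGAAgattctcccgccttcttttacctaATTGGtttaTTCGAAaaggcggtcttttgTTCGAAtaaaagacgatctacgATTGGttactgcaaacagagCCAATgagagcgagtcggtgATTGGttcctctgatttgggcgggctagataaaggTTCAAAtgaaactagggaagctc
Mki67: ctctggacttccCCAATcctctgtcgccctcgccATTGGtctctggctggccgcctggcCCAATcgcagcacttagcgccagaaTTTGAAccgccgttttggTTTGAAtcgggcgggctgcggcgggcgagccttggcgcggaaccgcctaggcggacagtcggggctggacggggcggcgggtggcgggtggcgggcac
Mcm6: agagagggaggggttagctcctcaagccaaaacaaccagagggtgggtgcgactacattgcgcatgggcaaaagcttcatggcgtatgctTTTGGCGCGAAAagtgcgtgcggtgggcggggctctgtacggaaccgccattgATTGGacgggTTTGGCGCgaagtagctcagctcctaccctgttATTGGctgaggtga
Anln: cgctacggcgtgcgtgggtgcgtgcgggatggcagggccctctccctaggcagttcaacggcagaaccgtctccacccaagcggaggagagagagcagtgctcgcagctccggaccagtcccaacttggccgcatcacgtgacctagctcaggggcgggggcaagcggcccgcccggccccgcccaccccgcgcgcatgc

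The files held 67360 barcodes, 7205 to 14246 per library, and 61917 nuclei were kept. The lowest and highest 2.5% of each library by UMIs or features, and the highest 2.5% by mitochondrial share, were removed. Median depth was 4607 to 8462 UMIs per nucleus, and 553 barcodes occurred in more than 1 library (1.5 to 1.94% of a library). Cell classes were named from fixed marker genes after clustering without 142 cell cycle genes, so that dividing nuclei stayed in their own class. The Tgfbr2-cKO 7 dpi library stood apart, with 54.8% neuron-like nuclei and 3.58% fibroblast-like nuclei against 1.11% and 29.0% in Ctrl at 7 dpi, and its shares, sums and counts of members are given with and without the neural classes, while its CPM of single members below are over all nuclei unless a class or non-neural nuclei are named. The neural classes are nuclei like neurons, astrocytes, oligodendrocyte precursors, oligodendrocytes and neural progenitors. Fewer cells of a class and less RNA per cell cannot be told apart in sums over a library. In fibroblast-like nuclei, Tgfbr2 was at 332 CPM in Ctrl, 251 in Tgfbr2-cKO and 256 in ADWA11 at 7 dpi, and at 241, 202 and 209 CPM at 21 dpi. Counts of 3′ tags do not separate transcripts with and without a deleted exon, so these levels do not check the deletion.

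A nucleus was called positive when it had 4 or more of the 43 members detected after thinning to 2000 UMIs, which made nuclei of unequal depth comparable. Over all 54315 thinned nuclei, 2809 were positive. At 7 dpi nuclei with 3 members, just under the cut, were fewer than positive nuclei in Ctrl (240 against 642) and Tgfbr2-cKO (152 against 316). The same held in the ADWA11 7 dpi library, where 369 nuclei had 3 members, 188 had 4, 143 had 5 and 1106 had 6 to 18. At 21 dpi nuclei with 3 members outnumbered positive nuclei in ADWA11 (206 against 151) and Tgfbr2-cKO (106 against 78). In Ctrl at 21 dpi they were fewer (127 against 185). In neuron-like nuclei, the class that should lack these transcripts, 17 of 5705 nuclei of the Tgfbr2-cKO 7 dpi library were positive (0.298%, 95% interval 0.174 to 0.477), and 18 of all 19 positive neuron-like nuclei were called doublets. That share was taken as background, but it may understate that of other classes. Among nuclei with under 4 of the S and G2/M members, the member Rad51b was detected in 1.33% of neuron-like nuclei. It was detected in 21.5% of such fibroblast-like and 25.6% of such myeloid-like nuclei.

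Positive nuclei were most frequent at 7 dpi in the ADWA11 library and less frequent at 21 than at 7 dpi in every group. At 7 dpi, 8.75% of Ctrl nuclei were positive (642 of 7335, interval 8.12 to 9.42), 3.29% of Tgfbr2-cKO nuclei (316 of 9592, 2.95 to 3.67) and 13.9% of ADWA11 nuclei (1437 of 10344, 13.2 to 14.6). At 21 dpi the shares were 1.84% in Ctrl (185 of 10062, 1.59 to 2.12), 1.36% in Tgfbr2-cKO (78 of 5751, 1.07 to 1.69) and 1.34% in ADWA11 (151 of 11231, 1.14 to 1.58). The 3 libraries at 7 dpi did not overlap within counting error, and none overlapped a library at 21 dpi. Without thinning the shares were 18.9, 12.5 and 29.7% at 7 dpi and 5.35, 8.98 and 6.68% at 21 dpi, in the order Ctrl, Tgfbr2-cKO, ADWA11, where Tgfbr2-cKO was highest at 21 dpi.

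The low share in the Tgfbr2-cKO library at 7 dpi was not seen over non-neural nuclei, where all neural classes were left out together. Leaving out neuron-like nuclei alone was not tested. Of the non-neural nuclei at 7 dpi, 2251 were myeloid-like and 374 fibroblast-like in Tgfbr2-cKO, and 4065 and 2401 in Ctrl. As a log2 ratio of shares, Tgfbr2-cKO over Ctrl at 7 dpi was -1.41 (-1.61 to -1.21) over all nuclei and 0.17 (-0.06 to 0.39) over non-neural nuclei, of which 9.84% were positive in Tgfbr2-cKO and 8.75% in Ctrl. The ADWA11 over Ctrl ratio at 7 dpi was 0.67 (0.53 to 0.80) over all nuclei and 0.65 over non-neural nuclei. At 21 dpi both contrasts were below 0, at -0.44 (-0.84 to -0.05) for Tgfbr2-cKO and -0.45 (-0.77 to -0.13) for ADWA11 over all nuclei, and at -0.40 (-0.89 to 0.08) and -0.41 (-0.75 to -0.08) over non-neural nuclei. Both were above 0 with 3 or more members as the criterion (0.05 and 0.04) and without thinning (0.75 and 0.32), so that the data give no stable direction for all nuclei at 21 dpi. Between Ctrl libraries, 21 over 7 dpi was -2.25.

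**Figure D1:**
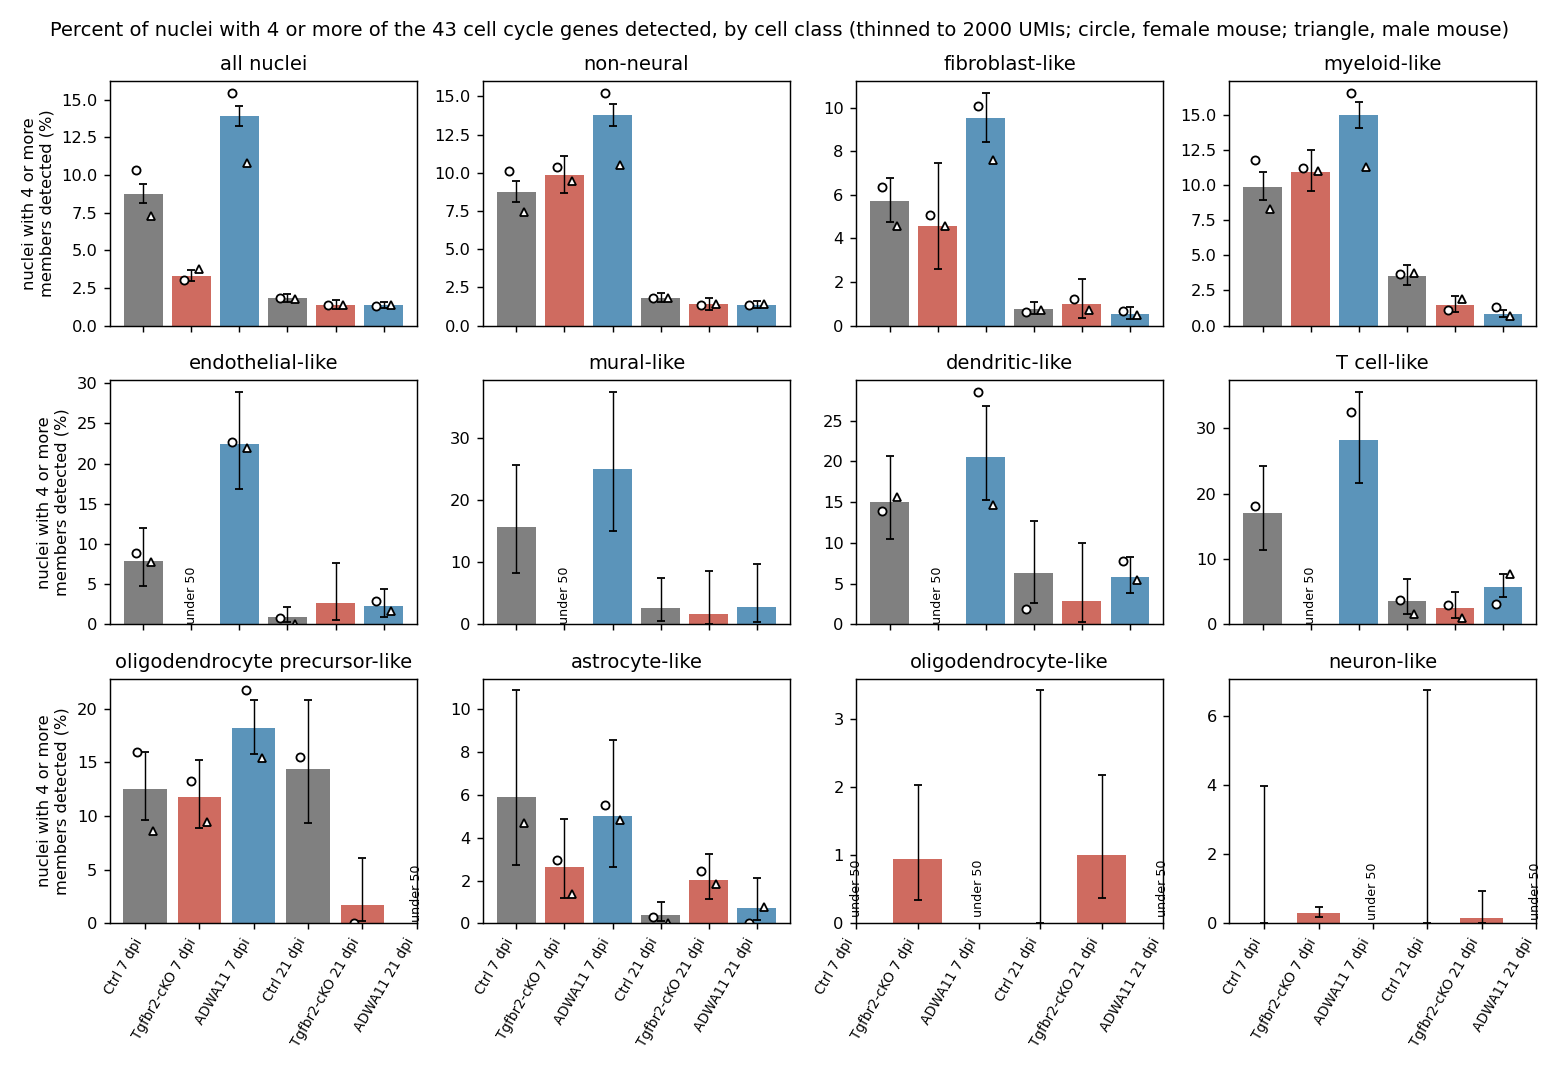
Percent of nuclei with 4 or more of the 43 members detected (y axis, thinned to 2000 UMIs) in each cell class and library, with bars for exact 95% intervals and, where at least 50 nuclei could be assigned to a mouse, circles for the female and triangles for the male. Most classes sit highest in ADWA11 at 7 dpi and lower at 21 dpi, and classes with under 50 thinned nuclei are marked.

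At 7 dpi most non-neural classes held positive nuclei. Myeloid-like nuclei (macrophages and microglia) were positive in 9.91% of Ctrl, 11.0% of Tgfbr2-cKO and 15.0% of ADWA11 nuclei, and fibroblast-like nuclei in 5.72, 4.59 and 9.52%. The ADWA11 over Ctrl log2 ratio was 0.60 (0.42 to 0.78) in myeloid-like nuclei and 0.74 (0.42 to 1.06) in fibroblast-like nuclei. For Tgfbr2-cKO over Ctrl the fibroblast ratio was -0.32 with an interval of -1.20 to 0.46, since 15 of 327 Tgfbr2-cKO fibroblast-like nuclei were positive, and a difference within that range was not detectable at this depth. Endothelial-like nuclei were positive in 7.88% of Ctrl and 22.4% of ADWA11 (log2 ratio 1.51, 0.70 to 2.37), and mural-like nuclei in 15.6 and 25.0%. Dendritic-like nuclei were positive in 15.0% of Ctrl and 20.6% of ADWA11, and T cell-like nuclei in 17.1 and 28.2%, with a log2 ratio of 0.72 for T cell-like nuclei. In Ctrl and ADWA11 these rest on 12 and 16 positive mural-like, 31 and 42 dendritic-like and 25 and 48 T cell-like nuclei. The dendritic-like share was 13.9 and 28.6% in the females but 15.7 and 14.6% in the males. In Tgfbr2-cKO the endothelial-, mural-, dendritic- and T cell-like classes had under 50 thinned nuclei each and their shares carry wide intervals.

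Nuclei like oligodendrocyte precursors, the dividing glia of adult cortex, had the highest share of any class in Ctrl at 21 dpi. Their share was 12.5% in Ctrl, 11.8% in Tgfbr2-cKO and 18.2% in ADWA11 at 7 dpi. At 21 dpi it was 14.4% in Ctrl (23 of 160), 1.72% in Tgfbr2-cKO (2 of 116) and 5.13% in ADWA11 (2 of 39). In Ctrl the days overlapped in these nuclei (log2 ratio of 21 over 7 dpi 0.20, -0.57 to 0.92), and Tgfbr2-cKO over Ctrl at 21 dpi was -3.06 (-6.19 to -1.04). The Ctrl female was at 15.5% and the Ctrl male at 13.9% at 21 dpi, and none of the precursor-like nuclei assigned to a Tgfbr2-cKO mouse was positive (0 of 54 and 0 of 38, which allow shares of up to 5.56 and 7.89%). This contrast depended on the processing. The log2 ratio of shares was -0.51 without thinning and -0.59 when cell cycle genes were kept among the variable genes, and under the latter the summed G2/M level went from -2.78 to 0.22, on the log2 scale against Ctrl. Astrocyte-like nuclei were positive in 5.88, 2.61 and 5.00% of nuclei at 7 dpi and in 0.396, 2.00 and 0.726% at 21 dpi, and oligodendrocyte-like nuclei in at most 1.01% in any library.

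At 21 dpi myeloid-like nuclei separated the groups. They were positive in 3.56% of Ctrl, 1.46% of Tgfbr2-cKO and 0.819% of ADWA11 nuclei, with log2 ratios over Ctrl of -1.29 (-1.94 to -0.67) and -2.12 (-2.67 to -1.59). Fibroblast-like nuclei were at 0.776% in Ctrl, 0.988% in Tgfbr2-cKO and 0.547% in ADWA11 and overlapped within counting error. For Tgfbr2-cKO the fibroblast ratio of 0.35 ran from -1.77 with thinning to 1000 UMIs to 1.85 without thinning, and the ADWA11 ratio of -0.50 was 1.09 without thinning. Without thinning the myeloid ratios were -0.12 and -0.55. T cell-like nuclei were positive in 3.60% of Ctrl, 2.46% of Tgfbr2-cKO and 5.80% of ADWA11 nuclei. In ADWA11 the male was at 7.73% (35 positive nuclei) and the female at 3.21% (5), beside 1.59 and 3.67% in the Ctrl male and female. T cell-like and dendritic-like nuclei made up 29.1 and 19.2% of all positive nuclei in ADWA11 at 21 dpi, against 4.32 and 3.78% in Ctrl, where myeloid-like nuclei made up 50.3%. T cell-like nuclei were 9.37% of ADWA11 nuclei and 2.88% of Ctrl nuclei at that day, and dendritic-like nuclei were 5.60 and 1.54%.

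Myeloid-like nuclei of the 3 groups lay in different clusters, which bears on every myeloid value above. The microglia-like cluster, led by Siglech, Cx3cr1 and Sall1, held 1794 nuclei in Ctrl and 1861 in Tgfbr2-cKO at 7 dpi but 102 in ADWA11, and 1175, 1113 and 7 at 21 dpi. It was positive in 13.1, 12.1 and 13.2% of thinned nuclei at 7 dpi and in 1.32% of Ctrl and 1.86% of Tgfbr2-cKO nuclei at 21 dpi. Most ADWA11 myeloid-like nuclei lay in 2 clusters that the markers did not name further, one led by Fabp4, F7 and Slamf7 and one led by Cd36 and Stab1. The Cd36 cluster was positive in 8.37% of Ctrl and 19.2% of ADWA11 nuclei at 7 dpi, and the Fabp4 cluster in 7.95 and 11.3%. In the Fabp4 cluster the females were at 5.52% in Ctrl and 12.8% in ADWA11, while the males went the other way (10.6 and 8.40%). At 21 dpi the Cd36 cluster was positive in 8.06% of Ctrl, 0.893% of Tgfbr2-cKO and 2.07% of ADWA11 nuclei, and the Fabp4 cluster in 4.28, 0.787 and 0.687%. A cluster led by Kynu and Ms4a7 was positive in 7.36, 8.02 and 19.2% at 7 dpi and in 7.11% of Ctrl and 1.62% of Tgfbr2-cKO nuclei at 21 dpi. The macrophage-like cluster led by Cd163 and F13a1 was at 0.667% in Ctrl and 5.95% in ADWA11 at 7 dpi and 0.680 to 1.41% at 21 dpi. The ADWA11 value rested on the female (6.91%, against 1.26% in the male). In Ctrl, then, the microglia-like share differed between the days while the Cd36 and Kynu clusters differed by less than counting error. In the Cd36 cluster the Ctrl female was at 11.8% at 7 dpi and 9.71% at 21 dpi, and the male at 3.09 and 8.93%.

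**Figure D2:**
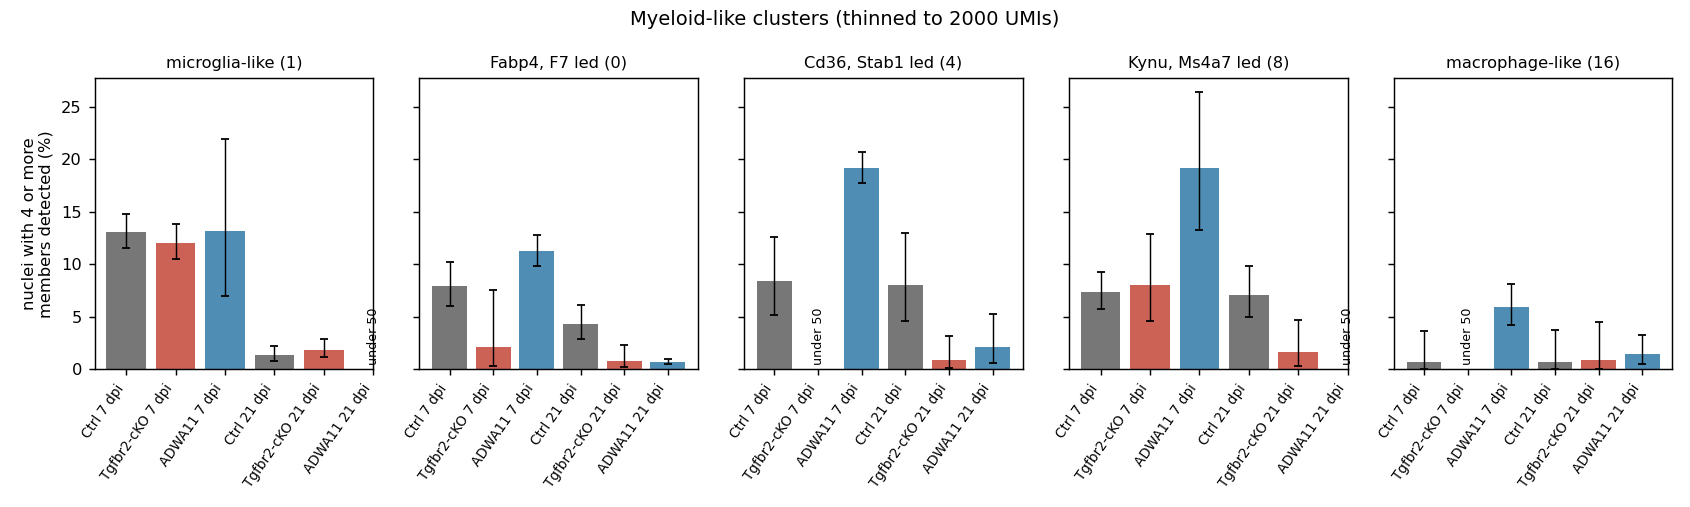
Percent of thinned nuclei with 4 or more members detected (y axis) in each myeloid cluster and library, with exact 95% intervals. In Ctrl the microglia-like cluster goes from 13.1% at 7 dpi to 1.32% at 21 dpi, and the Cd36 cluster from 8.37 to 8.06%.

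Within a library the nuclei could be assigned to the female or the male mouse by sex-linked transcripts. In fibroblast-like nuclei at 7 dpi, both ADWA11 mice (10.1% in the female, 7.60% in the male) were above both Ctrl mice (6.37 and 4.56%). In myeloid-like nuclei at 7 dpi, the ADWA11 mice were at 16.6 and 11.3% and the Ctrl mice at 11.8 and 8.28%, so that the mice of the groups overlapped. The female was above the male in both groups. At 21 dpi the myeloid share was 3.71 and 3.73% in the Ctrl mice, 1.08 and 1.90% in the Tgfbr2-cKO mice and 1.29 and 0.651% in the ADWA11 mice, and both mice of each group lay below both Ctrl mice. With 2 mice per group, which also differ in sex, these values are a description.

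The summed level of the G2/M members differed more between libraries than that of the S members. The 20 G2/M members together were at 514 CPM in Ctrl, 138 in Tgfbr2-cKO and 819 in ADWA11 at 7 dpi, and at 137, 156 and 117 CPM at 21 dpi. The 17 S members together were at 181, 68.3 and 249.7 CPM at 7 dpi and at 94.1, 76.5 and 96.6 CPM at 21 dpi. From 7 to 21 dpi in Ctrl, the log2 ratio was -1.91 for G2/M and -0.94 for S. ADWA11 over Ctrl at 7 dpi was 0.67 for G2/M and 0.47 for S. Over non-neural nuclei the Tgfbr2-cKO library at 7 dpi was at 569 CPM for G2/M and 201 for S, beside 518 and 186 in Ctrl. In neuron-like nuclei of that library, the background, the sums were 55.3 and 46.9 CPM.

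**Figure D3:**
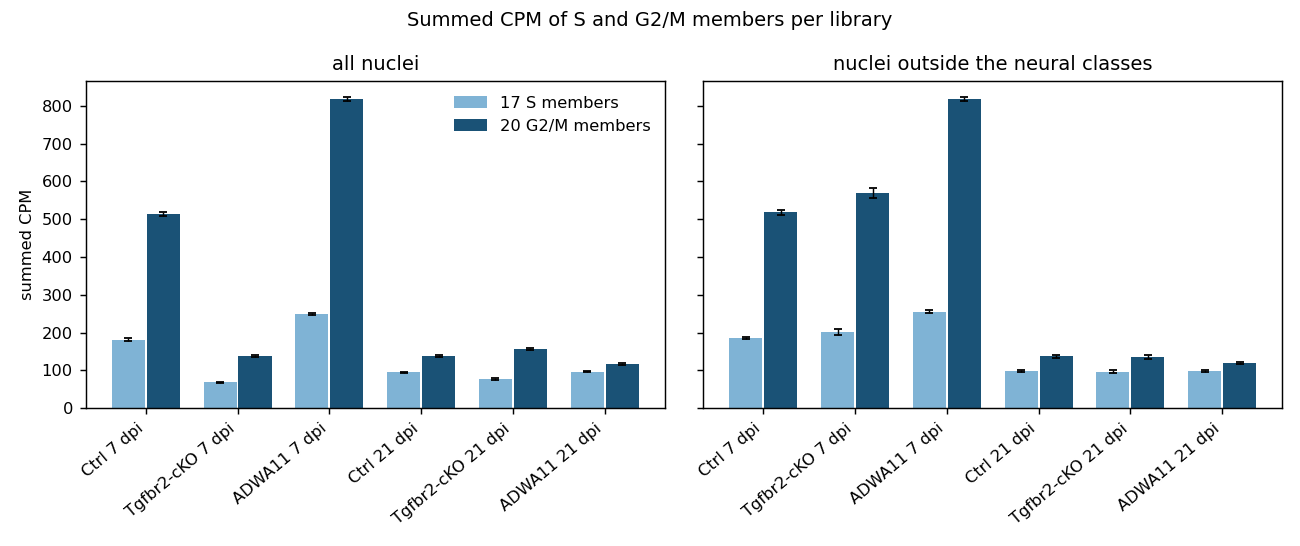
Summed CPM of the 17 S members and the 20 G2/M members (y axis) by library, in all nuclei and in nuclei outside the neural classes, with exact Poisson 95% intervals. The G2/M sum over all nuclei reaches 819 CPM in ADWA11 at 7 dpi and is 117 to 156 CPM at 21 dpi, while the S sum runs from 68.3 to 249.7 CPM.

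The ratio of G2/M to S UMIs, a quantity not divided by gene length, was 2.85 in Ctrl, 2.02 in Tgfbr2-cKO and 3.28 in ADWA11 at 7 dpi, and 1.45, 2.04 and 1.21 at 21 dpi. Over non-neural nuclei it was 2.79, 2.83 and 3.21 at 7 dpi and 1.41, 1.40 and 1.23 at 21 dpi, so that Tgfbr2-cKO did not stand apart there at either day. Anln alone gave 3377 of the 8247 G2/M UMIs of Tgfbr2-cKO at 21 dpi, and without it the all-nuclei ratio was 1.20. In fibroblast-like nuclei the ratio was 2.35, 2.06 and 2.89 at 7 dpi and 0.92, 1.04 and 0.72 at 21 dpi, and in myeloid-like nuclei 2.92, 3.01 and 3.27 and then 2.12, 1.54 and 1.18. Nuclei with under 4 of the S and G2/M members averaged 0.163 S and 0.165 G2/M members detected. Those with 4 or more averaged 1.88 and 5.83. The ratio over a library or class therefore depends on its share of such nuclei as well as on phase, and these were not separated. Among positive nuclei, which were chosen on these members, more S than G2/M members were detected in 18.2% in Ctrl, 23.4% in Tgfbr2-cKO and 20.1% in ADWA11 at 7 dpi, and in 21.1, 24.4 and 29.8% at 21 dpi. The interval at 21 dpi was widest in Tgfbr2-cKO (15.3 to 35.4%) and the groups overlapped. Of all 2809 positive nuclei, 583 held more S members, 2041 more G2/M members and 185 equal numbers.

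Of the members' UMIs, Rad51b gave 28.4%, Ccnd2 6.17%, Top2a 6.01% and Mki67 5.02%. Shares of UMIs are not divided by gene length, and Rad51b spans 517409 bp, the longest of the 43 genes. In GENCODE annotation, 6 members overlap another gene on the same strand and 12 on the opposite strand, 27 overlap none, and reads from overlapping genes cannot always be told apart. Levels below are CPM of UMIs summed over all nuclei of a library, in the order Ctrl, Tgfbr2-cKO, ADWA11.

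The S members include the helicase that unwinds origins and the enzymes that supply and use deoxynucleotides. Mcm2 was at 4.98, 1.06 and 6.70 CPM at 7 dpi and 2.16, 2.53 and 4.75 CPM at 21 dpi. Mcm3 was at 8.71, 1.95 and 10.3 CPM at 7 dpi and 4.65, 4.14 and 5.37 CPM at 21 dpi. Mcm4 was at 7.38, 3.60 and 9.14 CPM at 7 dpi and 4.5, 4.95 and 4.86 CPM at 21 dpi. In all 3 of these helicase subunits the Tgfbr2-cKO library was lowest at 7 dpi over all nuclei. Over non-neural nuclei Mcm2 was at 4.00 CPM in Tgfbr2-cKO and 5.13 CPM in Ctrl, Mcm4 at 7.74 and 7.81 CPM and Mcm3 at 13.1 and 9.28 CPM. Over all nuclei Mcm2 in ADWA11 at 21 dpi was the only member of the list that was 2-fold or more above Ctrl in that comparison. Mcm5 was at 4.38, 1.28 and 7.43 CPM at 7 dpi and 1.80, 1.23 and 1.70 CPM at 21 dpi. Mcm6 was at 25.8, 5.72 and 26.9 CPM at 7 dpi and 11.2, 6.97 and 9.12 CPM at 21 dpi. Pcna, the sliding clamp of the replication fork, was at 13.6, 5.10 and 17.9 CPM at 7 dpi and 12.8, 8.84 and 14.6 CPM at 21 dpi. In Ctrl the log2 ratio of 21 over 7 dpi was -0.09 for Pcna, beside -1.28 for Mcm5 and -1.20 for Mcm6. Prim1, a primase subunit, was at 10.3, 6.53 and 14.8 CPM at 7 dpi and 5.01, 5.89 and 5.50 CPM at 21 dpi. Rrm1, the large subunit of ribonucleotide reductase, was at 19.5, 7.70 and 29.2 CPM at 7 dpi and 10.1, 10.5 and 10.3 CPM at 21 dpi. Rrm2, its small subunit, was at 4.31, 0.731 and 7.65 CPM at 7 dpi and 1.28, 0.907 and 0.948 CPM at 21 dpi. For Rrm2 and Rrm1, subunits of the same enzyme, the log2 ratios of 21 over 7 dpi in Ctrl were -1.75 and -0.96. Tyms, which makes thymidylate, was at 15.8, 5.83 and 21.4 CPM at 7 dpi and 10.3, 6.91 and 9.36 CPM at 21 dpi. E2f1, an activator of S genes, was at 13.6, 4.87 and 19.7 CPM at 7 dpi and 7.56, 4.63 and 10.7 CPM at 21 dpi. E2f8, a repressor of the same targets, was at 7.33, 1.39 and 11.4 CPM at 7 dpi and 1.93, 1.13 and 2.09 CPM at 21 dpi. E2f8 was 2-fold or more lower at 21 than at 7 dpi in Ctrl, and E2f1 was not. Brca1, a repair protein loaded at stalled forks, was at 21.7, 4.63 and 35.3 CPM at 7 dpi and 6.39, 4.99 and 5.10 CPM at 21 dpi. Brca1 was highest of the 6 libraries in ADWA11 at 7 dpi. The remaining S members, Ccne1 and Ccne2 (cyclins of S entry), Chek1 (a replication checkpoint kinase) and Mybl2 (a factor of late S genes), were within 2-fold in all 5 comparisons, with log2 ratios from -0.97 to 0.68.

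Over all nuclei, all 20 G2/M members were below Ctrl in Tgfbr2-cKO at 7 dpi, except for Anln (log2 ratio 0.30) under TMM scaling, which added 0.39 to every log2 ratio of that contrast. Over non-neural nuclei 17 of the 20 were above Ctrl and 3 below (median log2 ratio 0.15, against 0.073 for all features). Within fibroblast-like nuclei 8 were above and 12 below (median -0.24). Within myeloid-like nuclei 13 were above and 7 below (median 0.047, against 0.075 for all features). All 20 were lower in Ctrl at 21 than at 7 dpi. Top2a, which untangles sister DNA, was at 78.9, 13.2 and 122 CPM at 7 dpi and 16.3, 12.8 and 14.8 CPM at 21 dpi. Mki67, which coats mitotic chromosomes, was at 74.6, 12.9 and 98.7 CPM at 7 dpi and 11.2, 9.37 and 9.76 CPM at 21 dpi. Cdk1, the mitotic kinase, was at 10.7, 3.01 and 16.1 CPM at 7 dpi and 3.12, 3.23 and 2.09 CPM at 21 dpi. All 3 were highest in ADWA11 at 7 dpi, and their log2 ratios of 21 over 7 dpi in Ctrl were -2.28, -2.74 and -1.78. Ccna2, a cyclin partner of Cdk1, was at 3.42, 1.01 and 6.48 CPM at 7 dpi and 1.47, 1.34 and 1.5 CPM at 21 dpi. Ccnb1 was at 3.93, 1.27 and 8.71 CPM at 7 dpi and 1.27, 1.00 and 0.893 CPM at 21 dpi. Ccnb2 was at 7.80, 5.34 and 11.5 CPM at 7 dpi and 3.13, 3.10 and 2.80 CPM at 21 dpi. Of these cyclins, Ccnb1 had the largest ratio of ADWA11 over Ctrl at 7 dpi (log2 1.15, 0.93 to 1.37). Plk1, a kinase of mitotic entry, was at 2.45, 1.20 and 4.10 CPM at 7 dpi and 1.23, 0.888 and 0.976 CPM at 21 dpi. Plk4, which starts centriole duplication, was at 19.5, 7.89 and 25.6 CPM at 7 dpi and 9.84, 7.99 and 9.32 CPM at 21 dpi. Aurka, a spindle pole kinase, was at 4.56, 1.34 and 9.15 CPM at 7 dpi and 1.80, 1.11 and 1.88 CPM at 21 dpi. Aurka was 2.01-fold higher in ADWA11 than in Ctrl at 7 dpi, and Plk4 stayed under 2-fold. Aurkb, a centromere kinase, was at 5.54, 1.28 and 10.3 CPM at 7 dpi and 1.63, 0.963 and 2.39 CPM at 21 dpi. Bub1, of the spindle checkpoint, was at 14.6, 2.53 and 25.3 CPM at 7 dpi and 3.46, 2.00 and 2.42 CPM at 21 dpi. Bub1b, a second checkpoint protein, was at 18.4, 4.49 and 32.9 CPM at 7 dpi and 5.54, 4.63 and 5.50 CPM at 21 dpi. These 3 were below 6 CPM at 21 dpi in all groups. Cenpe, a kinetochore motor, was at 45.1, 9.34 and 66.9 CPM at 7 dpi and 9.65, 7.57 and 7.98 CPM at 21 dpi. Cenpf, a kinetochore protein, was at 30.5, 5.48 and 47.1 CPM at 7 dpi and 7.16, 5.31 and 4.84 CPM at 21 dpi. Kif11, the spindle bipolarity motor, was at 39.1, 8.27 and 64.9 CPM at 7 dpi and 9.65, 5.80 and 6.11 CPM at 21 dpi. Over all nuclei their ordering at 7 dpi was that of Top2a, with ADWA11 highest and Tgfbr2-cKO lowest. Over non-neural nuclei none of the 4 was lowest in Tgfbr2-cKO, where Cenpe was at 51.6 CPM against 45.3 CPM in Ctrl and Kif11 at 42.9 against 38 CPM. Kif15, a second spindle motor, was at 52.2, 10.6 and 79.2 CPM at 7 dpi and 12.9, 8.93 and 11.0 CPM at 21 dpi. Kif23, a motor of cytokinesis, was at 24.5, 6.23 and 52.4 CPM at 7 dpi and 8.37, 4.97 and 7.74 CPM at 21 dpi. Racgap1, its partner in the central spindle, was at 21.8, 9.48 and 34.6 CPM at 7 dpi and 7.23, 5.50 and 8.70 CPM at 21 dpi. Kif23 in ADWA11 at 7 dpi was 2.13-fold above Ctrl, and Racgap1 was not past 2-fold in that contrast. Ect2, which acts at the cleavage furrow in cytokinesis, was at 25.7, 4.96 and 49.8 CPM at 7 dpi and 9.75, 5.50 and 7.87 CPM at 21 dpi. Anln, an actin-binding protein of the furrow, was at 30.3, 28.6 and 53.2 CPM at 7 dpi and 11.8, 63.8 and 8.35 CPM at 21 dpi. Anln was the exception in the G2/M list, with its highest level in Tgfbr2-cKO at 21 dpi.

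The high Anln level in Tgfbr2-cKO at 21 dpi moved with oligodendrocyte-like nuclei, which were 9.36% of that library and 0.852% of Ctrl. Anln was at 668 CPM in oligodendrocyte-like nuclei of Tgfbr2-cKO and 259 CPM in those of Ctrl at 21 dpi, and at 12.8 and 5.28 CPM in fibroblast-like nuclei and 14.1 and 19.5 CPM in myeloid-like nuclei of these libraries. Mki67 was at 1.46 CPM in the same Tgfbr2-cKO oligodendrocyte-like nuclei. The G2/M sum in Tgfbr2-cKO at 21 dpi, 0.19 above Ctrl on the log2 scale over all nuclei, was close to Ctrl over non-neural nuclei (135 against 137 CPM, log2 ratio -0.02).

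The 6 other members are cyclins, inhibitors and a repair gene that resting cells also express. Rad51b, a recombination factor, was at 351, 54.7 and 350.3 CPM at 7 dpi and 196, 180.1 and 180.4 CPM at 21 dpi. Ccnd1, a D-type cyclin that growth signals induce, was at 14.5, 7.04 and 15.6 CPM at 7 dpi and 9.21, 7.52 and 8.30 CPM at 21 dpi. Ccnd2, a second D-type cyclin, was at 36.7, 46.0 and 33.6 CPM at 7 dpi and 44.2, 57.7 and 52.0 CPM at 21 dpi. Over all nuclei Ccnd2 was the only member above Ctrl in Tgfbr2-cKO at 7 dpi (log2 0.33), joined under TMM scaling by Anln and Ccne2. Over non-neural nuclei it was below Ctrl (-0.23), and 32 of the 43 members were above. In fibroblast-like nuclei at 7 dpi, by contrast, Ccnd2 was at 101.7 and 64.4 CPM in the Tgfbr2-cKO female and male. The Ctrl mice were at 55.2 and 51.8 CPM, and the intervals of the males overlapped. Levels of Ccnd2 differed more between classes than between libraries. Within Ctrl at 7 dpi it was at 339.5 CPM in T cell-like nuclei, 215 in mural-like nuclei and 4.11 in myeloid-like nuclei. Cdkn1a, the p21 inhibitor, was at 16.1, 7.62 and 17.2 CPM at 7 dpi and 10.5, 13.1 and 12.5 CPM at 21 dpi. Cdkn2a, which encodes p16 and p19, was at 3.54, 0.857 and 3.98 CPM at 7 dpi and 2.35, 2.57 and 2.24 CPM at 21 dpi. Cdkn2b, the p15 inhibitor that TGFβ is known to induce, was at 3.31, 0.512 and 2.36 CPM at 7 dpi and 3.28, 3.21 and 2.43 CPM at 21 dpi. The 3 inhibitors were lowest in Tgfbr2-cKO at 7 dpi over all nuclei, the library with most neuron-like nuclei. Over non-neural nuclei Cdkn1a was at 31.5 CPM in Tgfbr2-cKO and 17.1 CPM in Ctrl at 7 dpi (log2 0.88, 0.70 to 1.06). In fibroblast-like nuclei it was at 18.6 against 10.1 CPM (0.89, 0.37 to 1.37), with 27.3 and 12 CPM in the Tgfbr2-cKO female and male and 10.9 and 8.31 CPM in the Ctrl mice. The Tgfbr2-cKO mice gave 25 and 11 Cdkn1a UMIs, and the intervals of the males overlapped. Cdkn2b was at 12 against 6.48 CPM in fibroblast-like nuclei (0.88, 0.23 to 1.49), on 27 Tgfbr2-cKO UMIs. That ratio rested on the male, at 16.4 against 5.67 CPM, while the females were at 7.66 and 7.45 CPM. Cdkn2a was at 3.99 against 4.57 CPM in fibroblast-like nuclei, and in myeloid-like nuclei Cdkn2b was at 1.15 against 1.18 CPM, both with intervals that held 0.

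**Figure D4:**
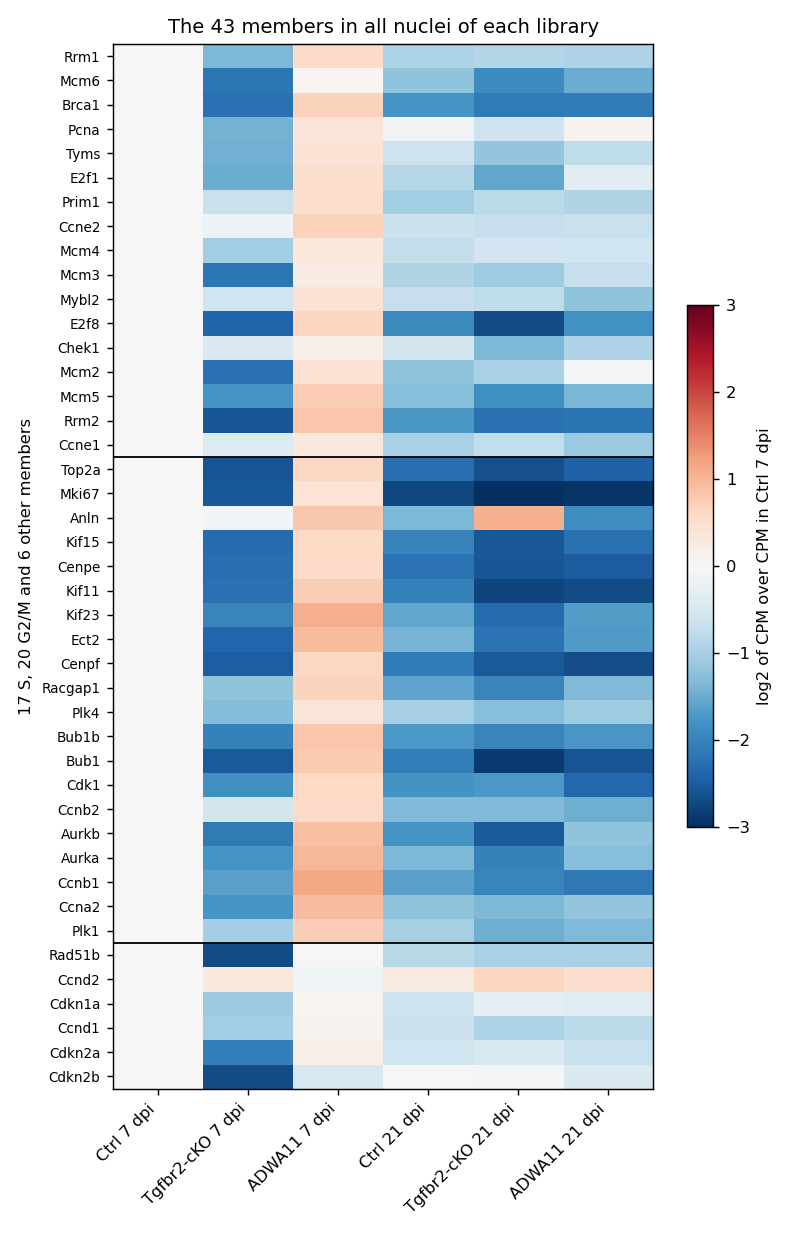
Log2 CPM ratio of each member (rows) to Ctrl at 7 dpi in each library over all nuclei, with members grouped into S, G2/M and other. Nearly all S and G2/M members lie below Ctrl at 7 dpi in Tgfbr2-cKO and at 21 dpi, and above it in ADWA11 at 7 dpi.

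Counts of members past 2-fold are set beside the share of all features with 20 or more UMIs that passed the same fold. In Tgfbr2-cKO over Ctrl at 7 dpi, 35 of 43 members were 2-fold or more lower (28 with TMM scaling) and 0 were higher, against 27.8% and 22.8% of all features. The median member log2 ratio was -1.78 and that of all features -0.32. Over non-neural nuclei 0 of 43 were past 2-fold in either direction (10.3% of all features higher and 6.85% lower), and the medians were 0.11 and 0.073. In ADWA11 over Ctrl at 7 dpi, 3 members (Ccnb1, Kif23 and Aurka) were 2-fold or more higher and 0 lower, against 6.8% and 4.73% of all features, while 40 of 43 were above 1 (median 0.58 against 0.05). At 21 dpi, 1 member was past 2-fold in Tgfbr2-cKO over Ctrl (Anln, higher; background 15.2% higher and 8.69% lower) and 1 in ADWA11 over Ctrl (Mcm2, higher; background 6.74% and 9.31%). In Ctrl at 21 over 7 dpi, 26 members were 2-fold or more lower and 0 higher, against 5.63% and 16.7% of all features, of which 19 were G2/M, 7 S and 0 other members.

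Cell cycle genes outside the 43 gave like counts. Over all nuclei, of 40 further G2/M genes all 40 were 2-fold or more lower in Tgfbr2-cKO at 7 dpi (27.8% of all features). At 21 against 7 dpi in Ctrl 37 were (5.63%). In the former contrast 0 of the 40 were 2-fold or more lower over non-neural nuclei, 1 in fibroblast-like and 0 in myeloid-like nuclei (6.85, 5.88 and 5.03% of all features). In ADWA11 at 7 dpi all 40 were above Ctrl (median log2 0.75). Cenpa, a centromere histone, and Ube2c, which marks mitotic proteins for destruction, were past 2-fold, beside 6.8% of all features. Of 25 further S genes, 17 and 13 were 2-fold or more lower in the first 2 of these contrasts (27.8% and 5.63%), and 21 were above Ctrl in ADWA11 (median 0.33). Of 18 regulators of the G1 phase, 13 were past 2-fold lower in Tgfbr2-cKO at 7 dpi over all nuclei (27.8%) and 0 over non-neural nuclei (6.85%). In ADWA11 at 7 dpi 1, Cdkn2c, was past 2-fold higher (6.8%).

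Fibroblast-like nuclei, the class at which the Cre is aimed, also lay in different clusters by group. At 7 dpi a cluster led by Lamc3 and Lama1 held 912 of 2401 Ctrl, 206 of 374 Tgfbr2-cKO and 1435 of 2829 ADWA11 fibroblast-like nuclei, and a part led by Eln and Col8a1 held 636, 7 and 127. Within the Lamc3 cluster 3.40% of Ctrl, 3.63% of Tgfbr2-cKO and 8.51% of ADWA11 nuclei were positive at 7 dpi, and in a cluster led by Mgp, Lum and Col1a1 11.3% of Ctrl and 22.2% of ADWA11 nuclei. The ADWA11 share was above Ctrl within both of these clusters. Median depth in the Mgp cluster over all libraries was 1644 UMIs, below the depth used for thinning. Most of its nuclei were therefore left out of its shares. Shares within the Eln part and the other fibroblast-like parts are not given here. How far the mix of clusters accounts for the ADWA11 share of the whole class was not tested. At 21 dpi a cluster led by Slc47a2 and Slc47a1 held 1590 of 6130 Ctrl, 376 of 690 Tgfbr2-cKO and 2198 of 3286 ADWA11 fibroblast-like nuclei, and 0.507, 0.798 and 0.137% of its nuclei were positive. These rest on 8, 3 and 3 nuclei, and with the 37 S and G2/M members as the criterion they were 0.507, 0.266 and 0.0457%. By that criterion the whole fibroblast-like class at 21 dpi was at 0.665% in Ctrl, 0.329% in Tgfbr2-cKO (2 of 607) and 0.322% in ADWA11.

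In fibroblast-like nuclei, 8 members were 2-fold or more higher in ADWA11 than in Ctrl at 7 dpi and 1 lower (background 7.13% and 3.43% of all features). They were the G2/M members Ccnb1, Kif23, Aurkb, Aurka, Ect2, Bub1b and Bub1 and the S member Mcm5, with log2 ratios from 1.04 to 1.52. Ccnb1 was at 2.18 CPM in Ctrl fibroblast-like nuclei and 6.25 CPM in ADWA11 fibroblast-like nuclei. The member that was lower, Cdkn2b, was at 6.48 CPM in Ctrl and 2.69 CPM in ADWA11 (log2 -1.27, -1.70 to -0.84). In Tgfbr2-cKO over Ctrl at 7 dpi, 0 were higher and 3 lower (8.9% and 5.88%), and these 3, Ccna2, Ccnb1 and Ect2, rested on 0, 2 and 15 Tgfbr2-cKO UMIs. From 7 to 21 dpi in Ctrl, 24 were lower and 0 higher (5.97% and 13.8%), and in ADWA11 over Ctrl at 21 dpi 0 were past 2-fold in either direction (4.4% and 4.1%).

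The inhibitor genes Cdkn2b and Cdkn2a were high in Tgfbr2-cKO fibroblast-like nuclei at 21 dpi. In Tgfbr2-cKO over Ctrl, 5 members were 2-fold or more higher and 3 lower (8.77% and 8.02%), the higher ones being Cdkn2b, Cdkn2a, Anln, Bub1b and Cenpe and the lower ones E2f8, Pcna and Kif11. Cdkn2b was at 14.0 CPM (83 UMIs) against 3.35 CPM in Ctrl (log2 2.07, 1.64 to 2.48), and Cdkn2a at 6.76 against 2.19 CPM (1.63, 1.04 to 2.20). Cdkn2a was at 6.67 CPM in the Tgfbr2-cKO female and 8.15 CPM in the male, above both Ctrl mice (2.79 and 1.17 CPM). Cdkn2b was at 4.45 CPM in the Tgfbr2-cKO female and 19.1 CPM in the male against 3.29 and 3.43 CPM in the Ctrl mice, so that its ratio rested on the male mouse.

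In myeloid-like nuclei at 21 dpi, many members were lower in both groups than in Ctrl. ADWA11 over Ctrl at 21 dpi had 22 members 2-fold or more lower and 1 higher (11% and 5.12% of all features), and Tgfbr2-cKO over Ctrl 12 lower and 0 higher (6.4% and 6%). Kif23 was at 19.5 CPM in Ctrl, 4.82 CPM in Tgfbr2-cKO and 7.59 CPM in ADWA11, and Top2a at 39.5, 17.2 and 11.4 CPM. Mcm2 was the one that was higher, at 7.46 CPM in ADWA11 against 3.09 CPM in Ctrl. Rad51b was at 364 CPM in Ctrl and 114 CPM in ADWA11. At 7 dpi, 2 members (Kif23 and Ccnb1) were higher and 0 lower in ADWA11 (7.24% and 5.85%) and 0 were past 2-fold in Tgfbr2-cKO (12.4% higher and 5.03% lower). From 7 to 21 dpi in Ctrl, 13 were lower and 0 higher (3.63% and 10.7%).

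**Figure D5:**
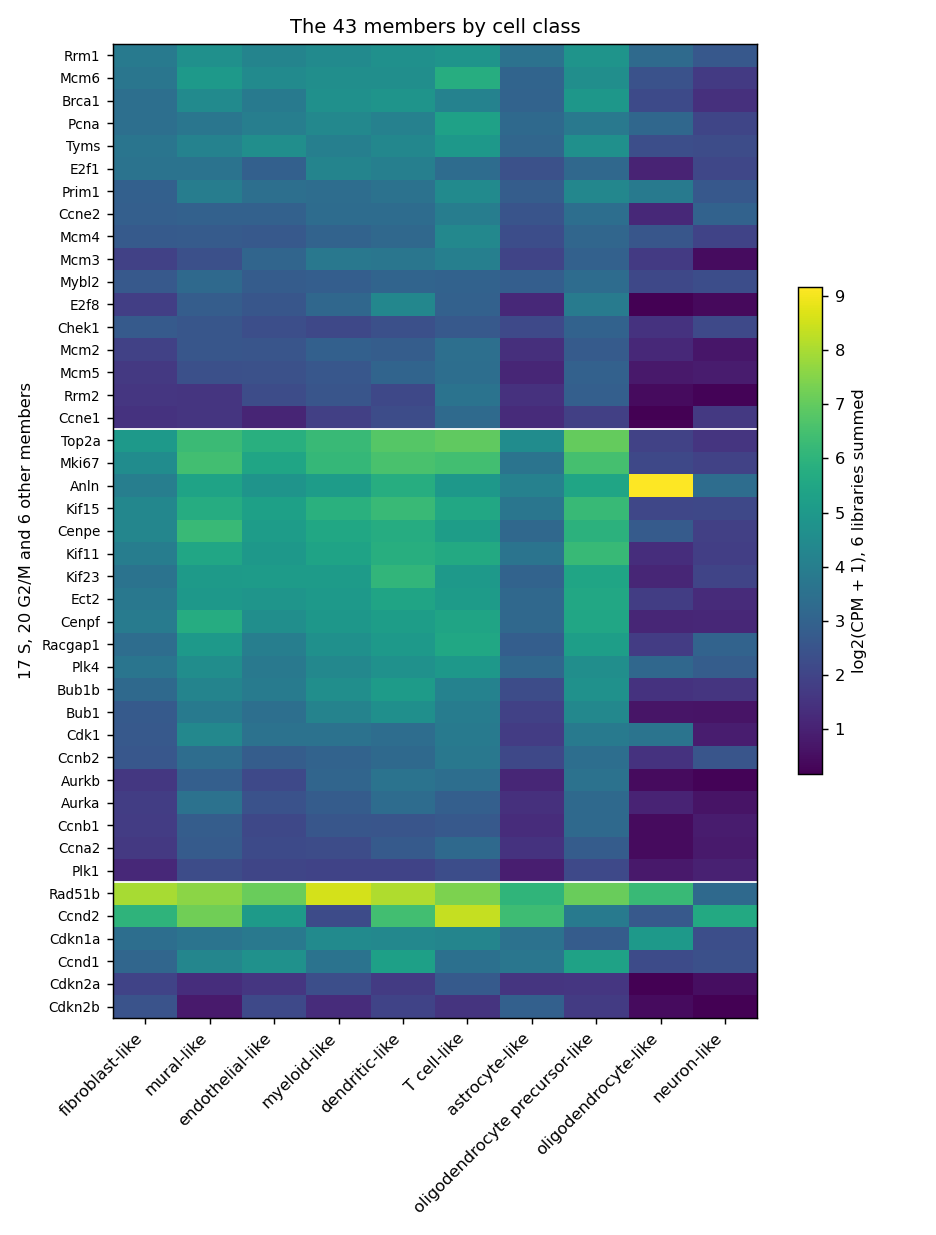
Level of each member (rows) by cell class (columns), with UMIs of the 6 libraries summed and colour for log2(CPM + 1). Most G2/M members are high in the same classes, Anln is also high in oligodendrocyte-like nuclei, and Ccnd2 is high in T cell-like nuclei and low in myeloid-like nuclei.

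The further S and G2/M genes, which had no part in choosing positive nuclei, were also detected more in them. Ccnd2 was detected less over all nuclei, but not within every class. With the 37 S and G2/M members as the criterion, 2463 nuclei were positive, and the 25 further S genes averaged 4.13 detected in positive nuclei and 0.634 in others. The 40 further G2/M genes averaged 8.93 and 0.432. Rad51b was detected in 73.6% of positive and 17.8% of other nuclei, Ccnd1 in 5.36 and 1.92%, Cdkn1a in 4.10 and 2.37% and Ccnd2 in 5.03 and 7.24%. Within classes, Ccnd2 was also detected less in positive fibroblast-like (6.96 and 10.7%), T cell-like (31.1 and 44.2%) and precursor-like nuclei (1.40 and 2.72%). It was detected more in positive myeloid-like (1.14 and 0.729%), astrocyte-like (36.6 and 12.2%) and neuron-like nuclei (14.3 and 9.05%). Endothelial-like nuclei were level (5.71 and 5.73%), and none of the 6 positive oligodendrocyte-like nuclei held Ccnd2. Positive nuclei had a higher median depth before thinning, 8445 against 6539 UMIs. Of nuclei positive for the 43 members, 11.9% were called doublets, against 8.0% of the others, and the shares were 20.2 and 10.2% in fibroblast-like nuclei, 33.7 and 20.2% in endothelial-like nuclei, 37.7 and 14.0% in astrocyte-like nuclei and 7.17 and 3.69% in myeloid-like nuclei. The part of doublets in these calls was not tested. The closing section gives ratios of summed G2/M levels without called doublets.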

How the data were processed

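Single-nucleus RNA-seq (10x Genomics Chromium 3′ v3.1) was run on nuclei sorted on DAPI from dissected lesions, 1 library per group. The deposited matrices hold UMI counts for 32285 features; per the file headers the authors used Cell Ranger 7.2.0 (7.1.0 in the submitters' processing notes), with mm10. Libraries held 64798965 to 140310354 UMIs.

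Barcodes outside the 2.5 to 97.5 percentiles of UMIs or features, or above the 97.5 percentile of mitochondrial share, set per library, were removed. Counts were normalised with sctransform 0.4.2 in Seurat 5.3.0 (R 4.3.3) and clustered on 3000 variable genes and 30 components at resolution 0.5, leaving out 142 cell cycle genes as well as sex-linked and mitochondrial genes. A class was named from 3 or more of its marker genes. Simulated doublets were scored with scanpy 1.11.5. The 5583 nuclei called doublets stayed in, except for 418 in clusters that were mostly doublets. Nuclei were assigned to the female or the male mouse by sex-linked transcripts.

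For shares, each nucleus was thinned to 2000 UMIs and shallower nuclei were left out. Levels are UMIs summed over nuclei, in CPM of the non-mitochondrial UMIs. Intervals are Clopper-Pearson for shares, exact Poisson for CPM and exact conditional binomial for log2 ratios (scipy 1.17.1), at 95%. A count of 0 was given a limit of 3 counts. These intervals and limits cover counting error only. Those of summed levels count each UMI as a separate draw, although 1 nucleus can give many, and so are too narrow for sets of nuclei. With 1 library per group no test was run and no p-value is given. Members were counted past 2-fold among features with 20 or more UMIs over the libraries compared. Ratio and thinning code was tested on simulated counts.

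All 43 members were accounted for. A member was given its value in every library when past 2-fold in 1 of the 5 comparisons with an interval that left out 0, or when among the 10 with most UMIs, and genes of the further lists were named by the size of their ratio. Some values by class, cluster and mouse were chosen after they were seen. The members and lists were chosen with earlier results of these data known. Alternatives are given in the closing section, among them edgeR 4.0.16 TMM factors. Coordinates are GENCODE M21 and RefSeq GRCm38.p6.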

Additional observations from a re-analysis of the deposited data

Results flagged for a closer look

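Several contrasts with Ctrl lay on opposite sides of 0 at 7 and 21 dpi, with counting intervals that left out 0 at both days. The difference between the days was not tested, since each group had 1 library per day. Intervals of summed levels count each UMI as a separate draw, although 1 nucleus can give many, so that leaving out 0 is a weak criterion there. Values are log2 ratios, first at 7 and then at 21 dpi.

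For ADWA11 over Ctrl the share of positive nuclei was 0.67 and -0.45 over all nuclei and 0.65 and -0.41 over non-neural nuclei. The summed G2/M level was 0.67 and -0.22 over all nuclei, 0.66 and -0.19 over non-neural nuclei and 0.79 and -0.27 in fibroblast-like nuclei. The 21 dpi share over all nuclei was above 0 with 3 or more members as the criterion.

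In myeloid-like nuclei, ADWA11 over Ctrl was 0.60 and -2.12 for the share, 0.58 and -1.43 for G2/M and 0.42 and -0.59 for S. The microglia-like cluster held 7 ADWA11 nuclei at 21 dpi and 1175 in Ctrl, and its part in these values was not tested. In nuclei like oligodendrocyte precursors the ADWA11 G2/M ratio was 0.57 and -4.31, the latter on 40 ADWA11 nuclei.

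For Tgfbr2-cKO over Ctrl the summed G2/M level was -1.89 and 0.19 over all nuclei and -0.19 and 0.19 in fibroblast-like nuclei. Without the neural classes the all-nuclei values were 0.13 and -0.02. In fibroblast-like nuclei the 21 dpi value was below 0 under 4 alternatives (-0.086 to -0.65), and the 7 dpi value was 0.055 in male nuclei. The fibroblast-like values rest on 15 positive Tgfbr2-cKO nuclei at 7 dpi and 6 at 21 dpi. The S level in nuclei like oligodendrocyte precursors was 0.16 and -0.65.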

How the results depend on the processing

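With 1 library per group the intervals hold counting error alone, and a difference between mice or libraries cannot be told apart from one between groups. Shares depend on depth, since thinning left out nuclei under 2000 UMIs, and the Tgfbr2-cKO 7 dpi library rests on few fibroblast-like nuclei. No paired analysis was possible because each group had 1 library and no result came from a test, but contrasts within female and within male nuclei are given. All values below are log2 ratios unless said otherwise, and where no construction of the alternative shows it the cause was not tested. Over all nuclei or all but the neural classes, 152 of the values under an alternative moved by less than counting error, 53 moved further and 10 changed sign from a value whose interval left out 0 (sign changes of values whose interval held 0 are counted with the others), and within fibroblast-, myeloid- and precursor-like nuclei 545, 113 and 8. Of the 10, 5 were without the neural classes.

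For Tgfbr2-cKO over Ctrl at 7 dpi the share of nuclei with 4 or more of the 43 members (-1.41) was -0.59 without thinning, -1.20 thinned to 1000 UMIs, -1.76 in female and -0.95 in male nuclei, and 0.17 without the neural classes. For the 37 S and G2/M members (-1.45) these were -0.73, -1.23, -1.80, -1.11 and 0.15. The S sum (-1.40) was -1.02 with TMM, -0.83 as a mean over nuclei, -1.56 in female and -1.22 in male nuclei, -1.31 with pooled percentiles and 0.11 without the neural classes. The G2/M sum (-1.89) was -1.51, -0.97, -2.21, -1.63, -1.80 and 0.13 in the same order, and -1.93 without called doublets. In male nuclei it was 0.055 in fibroblast-like (-0.19) and 0.023 in precursor-like nuclei (-0.30).

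For Tgfbr2-cKO over Ctrl at 21 dpi the share (-0.44) was 0.045 with 3 or more members and 0.75 without thinning, and that of the 37 members (-0.74) was 0.39 without thinning. The S sum (-0.30) was -0.17 as a mean over nuclei, -0.20 in female and -0.42 in male nuclei, -0.24 with pooled percentiles and -0.0085 without the neural classes. The G2/M sum (0.19) was 0.12 without called doublets, 0.43 as a mean over nuclei, 0.14 in female nuclei and -0.019 without the neural classes. In fibroblast-like nuclei the G2/M sum (0.19) was -0.46 with cell cycle genes kept among the variable genes, -0.31 without called doublets, -0.086 as a mean over nuclei and -0.65 with pooled percentiles. With cell cycle genes kept, precursor-like nuclei went from -0.65 to 0.022 for S and from -2.78 to 0.22 for G2/M.

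For ADWA11 over Ctrl at 7 dpi the S sum (0.47) was 0.43 with TMM and 0.41 in male nuclei. The G2/M sum (0.67) was 0.64 with TMM, 0.58 as a mean over nuclei, 0.60 in female and 0.62 in male nuclei. At 21 dpi the share (-0.45) was 0.036 with 3 or more members and 0.32 without thinning, and that of the 37 members (-0.71) was -0.055 without thinning. The S sum (0.04) was -0.043 in male nuclei, and the G2/M sum (-0.22) was -0.091 as a mean over nuclei and -0.40 in female nuclei.

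For Ctrl at 21 over 7 dpi the share (-2.25) was -1.96 with 3 or more members, -1.82 without thinning and -2.51 in female nuclei, where the 37 members were also at -2.51. The S sum (-0.94) was -1.03 with TMM, -0.81 as a mean over nuclei, -1.05 in female and -0.84 in male nuclei. The G2/M sum (-1.91) was -2.00, -1.88 without called doublets, -2.09 and -1.68 in female and male nuclei and -1.87 with pooled percentiles. At a ratio of 1.5 in place of 2, 21 members instead of 3 were higher in ADWA11 at 7 dpi, and 10 and 1 instead of 0 were lower at 21 dpi in Tgfbr2-cKO and ADWA11, beside 15.4, 17.3 and 19.1% of all features.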
